A study of Mus musculus with 6 samples.

Results

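The Smad proteins and the corepressors Ski and Skil were examined on microarrays of the retinal ganglion cell layer after optic nerve crush in the mouse. All probe sets whose platform annotation carries only the symbol Smad1, Smad2, Smad3, Smad4, Smad5, Smad6, Smad7, Smad9, Ski or Skil were taken. This gave 22 of 45037 probe sets, covering all 10 genes. The 3 crush eyes came from male C57BL/6J mice whose optic nerve had been crushed for 10 sec and whose retinas were collected 6 hrs later. The 3 control eyes were the uninjured contralateral eyes of the same animals, so a response shared by both eyes of an animal would not appear as a difference. The age of the mice is not given in the sources used here. From each eye about 6000 cells were cut from the ganglion cell layer with a laser, yielding about 60 ng of total RNA that was amplified and hybridized to 1 array.

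Smads carry signals from receptors of the transforming growth factor beta (TGF-beta) superfamily to the nucleus. Smad2 and Smad3 are phosphorylated by TGF-beta and activin receptors, while Smad1, Smad5 and Smad9 are phosphorylated by bone morphogenetic protein (BMP) receptors. The phosphorylated Smads join Smad4 and bind DNA, Smad6 and Smad7 block this sequence, and Ski and Skil (also called SnoN) bind Smad complexes and repress their target genes. In the retina BMP signaling is known for its part in patterning the developing eye and in glial responses to injury. The arrays measure mRNA, and the phosphorylation through which Smads act was not measured on them.

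Before any comparison the arrays and the captured cells were checked. Median intensities of the 6 arrays were between 131 and 154, in the arbitrary linear units of the deposited values. The ratio of 3' to 5' signal on the control probe sets was 6.65 to 10.5 for beta-actin and 4.62 to 7.54 for Gapdh. The part of this 3' bias in differences between probe sets of a gene was not tested. The array of crush eye 2 stood apart along the first principal component (44.2% of the variance), with 1331 probe sets more than 1 log2 unit below every other array, against 4 to 57 on the others. The array of crush eye 3 stood apart along the second component (27.8%), with 255 probe sets as far above every other array, against 2 to 27. Ganglion cell markers were bright in both groups. Their list (9 of 10 listed genes tested) had median log2 differences of 0.20, -0.18 and -0.020 in pairs 1 to 3. Nefl, a neurofilament subunit, averaged 13551 ± 1216 in crush eyes, against 13692 ± 328 in control eyes (SD, n = 3 each), and Thy1, a surface glycoprotein of these cells, averaged 9175 ± 774 in crush eyes and 8889 ± 274 in control eyes. Rod genes were bright as well, with means of 2929 to 10314 in crush eyes and 2444 to 10067 in control eyes for the 6 of 7 listed genes tested. The rod list had median log2 differences of -0.21, 0.12 and 0.84 in pairs 1 to 3. Its summed intensity was 35052 to 41658 in crush eyes, against 25393 to 46181 in control eyes. The lens list (4 of 5 listed genes tested) had medians of -0.39, -2.43 and 0.015. The summed intensity of the pigment epithelium list ran from 2059 to 8022 in crush eyes and from 893 to 1441 in control eyes (4 of 6 listed genes tested). In this list Ttr, a thyroxine carrier, averaged 3807 ± 3087 in crush eyes, against 649.6 ± 258 in control eyes (SD, n = 3 each), while the defining markers Rpe65 and Mlana averaged 6.28 and 1 in crush eyes and 1 each in control eyes. Rgr averaged 188 ± 128 in crush eyes, against 68.7 ± 22.2 in control eyes (SD, n = 3 each). Both Ttr and Rgr were higher in all 3 pairs. Tyrp1 averaged 240 in crush eyes and 300 in control eyes, and Best1 averaged 66.9 and 66.4. Markers of Muller glia and bipolar cells had medians below 0 in every pair. The Muller glia list had median log2 differences of -0.26, -0.12 and -0.097 in pairs 1 to 3, with 5 of 8 genes lower in all pairs and a summed intensity of 42049 to 44293 in crush eyes, against 44161 to 48893 in control eyes. The bipolar list had medians of -0.11, -0.25 and -0.081, with 2 of 4 genes lower in all pairs and sums of 8878 to 10049 in crush eyes, against 10031 to 12008 in control eyes. Of the amacrine markers 3 of 7 were lower in all pairs, with list medians of -0.098, -0.43 and 0.022. Gfap, an astrocyte filament that Muller glia also make after injury, averaged 719 ± 107 in crush eyes, against 403 ± 90.9 in control eyes (SD, n = 3 each). Of the 4 astrocyte markers on the array, Gfap among them, 2 were higher in all pairs and 2 were lower in all pairs. The astrocyte list had median log2 differences of 0.025, 0.065 and -0.063 in pairs 1 to 3. The medians were 0.012, 0.54 and -0.14 for microglia, and -0.13, 0.26 and 0.12 for endothelial and mural cells. How many of all genes were lower or higher in all 3 pairs was not counted, so the marker counts only describe the lists. The part of any of these cell types in the differences below was not tested, including the lower values of Smad3, Smad5, Id1 and Id2.

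Of the 22 probe sets, 17 had a mean intensity of at least 40 over the 6 arrays and were tested, representing 9 of the 10 genes. The test was limma on log2 intensities with eye number as a block, over 33169 probe sets. The remaining 5 probe sets had means of at most 34.2 and are described by their values only. No member differed after adjustment over all probe sets, and the adjusted p values of the 17 were between 0.642 and 0.992. No probe set of the whole array passed an adjusted p under 0.05 in this fit either. At an unadjusted p under 0.05, called nominal here, 1 member probe set was higher after crush (5.88% of 17, against 5.16% of all probe sets tested) and 2 were lower (11.76%, against 2.51%). These were a Ski probe set, a Smad3 probe set and a Smad5 probe set. The 17 probe sets had a median log2 fold change of 0.01, with 9 above 0 and 8 below, and the median of all probe sets tested was -0.01. In these bulk samples, fewer cells of a type and less RNA per cell cannot be told apart.

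**Figure D1:**
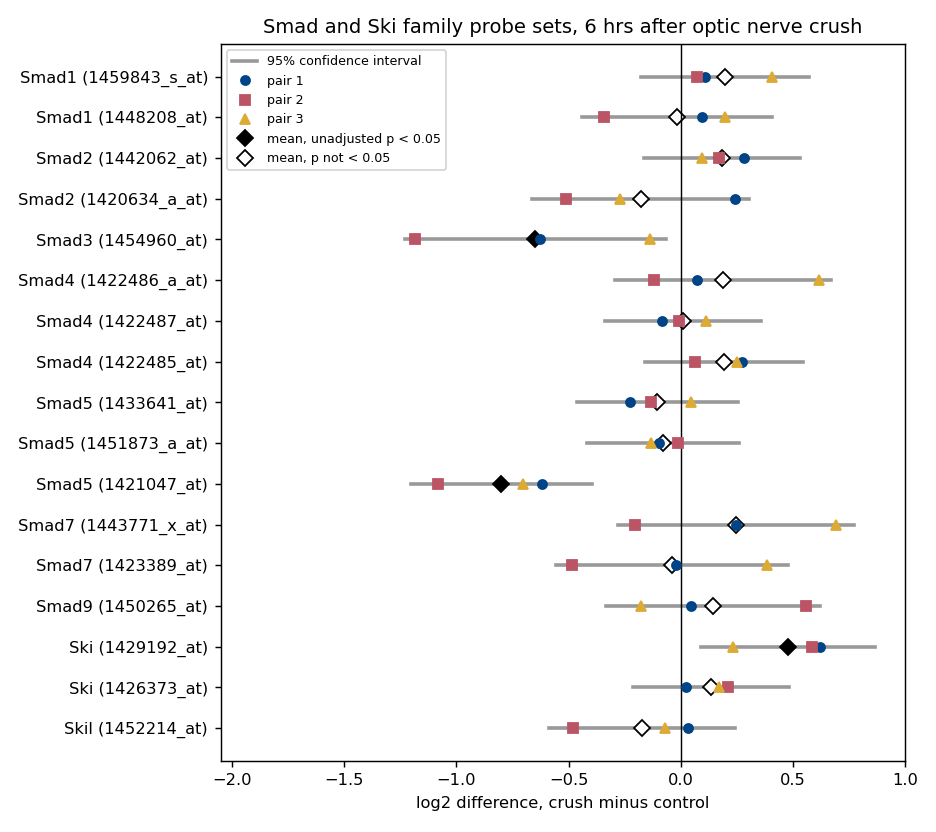
Log2 differences, crush minus control, for the 17 tested probe sets of the Smad and Ski genes (down the page), with each pair of eyes as a point, the mean as a diamond and the 95% confidence interval from limma as a grey bar. The intervals of Smad3 1454960_at, Smad5 1421047_at and Ski 1429192_at do not reach 0, while the other 14 means lie between -0.18 and 0.24.

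Smad3 and Smad5 were the genes with the larger decreases. Smad3, the receptor-activated Smad that binds DNA directly downstream of TGF-beta and activin, had intensities of 759, 683 and 864 in crush eyes 1 to 3 on 1454960_at, against 1170.4, 1550.1 and 950.01 in control eyes 1 to 3. All crush values were below all control values. The mean was 769 ± 91.1 in crush eyes, against 1224 ± 304 in control eyes (SD, n = 3 each). On the log2 scale the fold change was -0.65 (SE 0.23, 95% confidence interval -1.23 to -0.07), with an adjusted p of 0.642 in limma. The size differed among the pairs, with log2 differences of -0.63, -1.18 and -0.14. The deepest decrease was in pair 2, whose crush array stood apart and whose control eye had the highest value. Without crush eye 2 alone, in a fit without the block, the log2 fold change was -0.57 and still nominal. Without pair 2 it was -0.38 and no longer nominal. The nominal call was also lost without pair 1, with a floor of 64 on the intensities, without the filter on mean intensity and with the methods' t-test. Both other Smad3 probe sets were close to the bottom of the scale, with 7.62, 13.4 and 16.1 in crush eyes and 6.16, 6.08 and 3.29 in control eyes on 1450472_s_at, and at most 2.46 on any array on 1450471_at. The decrease on 1454960_at therefore had no second measurement on the arrays.

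Smad5, which acts downstream of BMP receptors, was measured by 3 probe sets that differed in size. On 1421047_at the intensities were 116, 81.2 and 108 in crush eyes, against 178, 172 and 177 in control eyes. The groups did not overlap, and control eyes lay within a narrow range. The mean was 102 ± 18.2 in crush eyes, against 175 ± 3.09 in control eyes (SD, n = 3 each). The log2 fold change was -0.80 (SE 0.16, 95% confidence interval -1.20 to -0.40, adjusted p = 0.642 in limma). This was the largest decrease among the 17 tested probe sets and was seen in every pair, with log2 differences of -0.62, -1.08 and -0.70. It was nominal in all 14 alternative settings in which it was computed, from -0.89 to -0.65. A second Smad5 probe set, 1433641_at, read 790.45, 819 and 605 in crush eyes and 926, 899 and 586 in control eyes. There the groups overlapped and the log2 fold change was -0.11 (95% confidence interval -0.46 to 0.25). On 1451873_a_at the values were 171, 191 and 142 in crush eyes and 183, 192 and 156 in control eyes, lower in each pair by a small step, with a log2 fold change of -0.08 (95% confidence interval -0.42 to 0.26). With the 3 probe sets averaged, Smad5 had a log2 fold change of -0.33 (SE 0.13, adjusted p = 0.737). Which transcript forms each probe set detects is not given in the files, and the intensities of different probe sets cannot be set against each other.

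**Figure D2:**
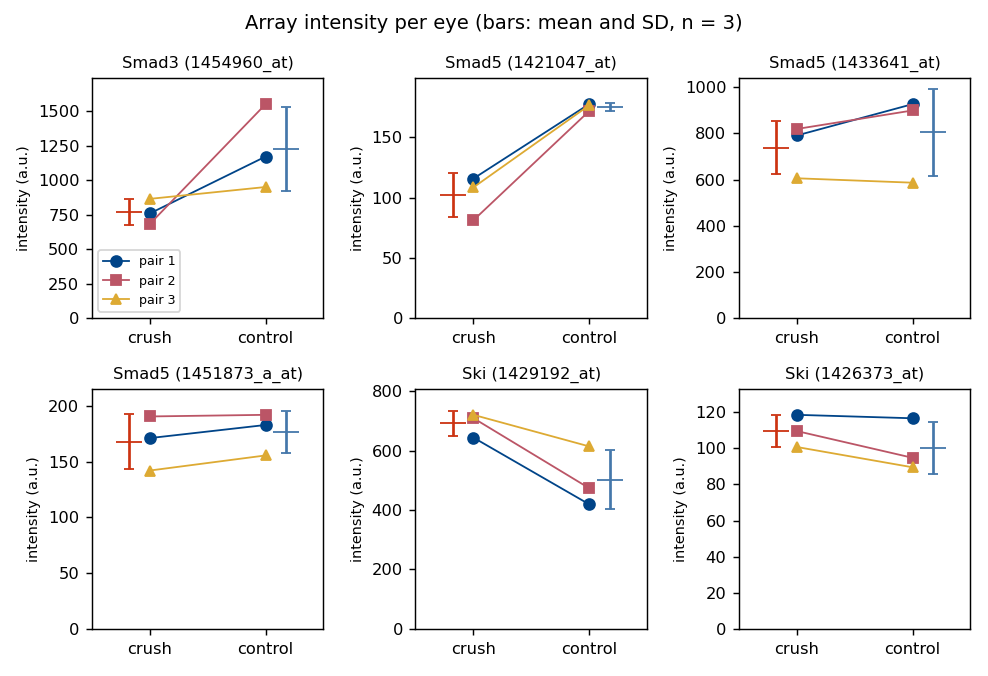
Linear intensity (arbitrary units) of 6 probe sets of Smad3, Smad5 and Ski in each crush eye (left) and its control eye (right), joined by pair, with the mean and SD of each group (n = 3) as bars beside the points. On Smad5 1421047_at the crush eyes sit between 81.2 and 116 and the control eyes between 172 and 178, while on Smad5 1433641_at and 1451873_a_at the groups overlap.

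Ski was the member with the nominal increase. Ski, which recruits histone deacetylases to Smad complexes, had intensities of 644, 709 and 721 in crush eyes on 1429192_at, against 419.5, 474 and 614 in control eyes. Every crush eye was above every control eye, although control eye 3 came close. The mean was 691 ± 41.4 in crush eyes, against 503 ± 101 in control eyes (SD, n = 3 each), giving a ratio of 1.38 and a log2 fold change of 0.48 (SE 0.15, 95% confidence interval 0.09 to 0.86, adjusted p = 0.642 in limma). The pairs gave log2 differences of 0.62, 0.58 and 0.23. The other Ski probe set, 1426373_at, read 118, 109.5 and 101 in crush eyes, against 117, 94.7 and 89.5 in control eyes. It was also higher in each pair, but the groups overlapped and its log2 fold change of 0.13 had a 95% confidence interval of -0.21 to 0.48. The mean of both Ski probe sets was 0.31 (SE 0.13), which was not nominal. The nominal call on 1429192_at was also lost with quantile normalization (0.42), without pair 1 (0.41), without pair 2 (0.42), without crush eye 2 (0.46) and without crush eye 3 (0.45). Skil, the close relative of Ski, had intensities on 1452214_at of 4352, 3528 and 4193 in crush eyes and 4263, 4926 and 4399 in control eyes. Its log2 fold change was -0.17 (95% confidence interval -0.59 to 0.24), and most of that came from pair 2, at -0.48 against 0.03 and -0.07 in pairs 1 and 3. The second Skil probe set, 1422054_a_at, stayed at or below 17.3 on every array. Whether Ski and Skil differ from each other in their response was not tested.

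The study called a gene changed when its group means differed by more than 80 units and by a ratio above 1.2, with an unadjusted p under 0.05. With the p taken from limma, Ski 1429192_at met them among the higher probe sets (2.58% of all probe sets tested did), with a difference of 189. Smad3 1454960_at met them among the lower (0.543% of all), with a difference of -455. Smad5 1421047_at did not, since its difference was -73.5, so its listing by the study was not reproduced from the deposited values. With the p taken from the methods' t-test, Ski 1429192_at was the only member that met them. The probe sets Ski 1429192_at and Smad5 1421047_at stand among the genes that the study itself listed as changed on these same arrays, so their direction here is not independent evidence.

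The RefSeq sequences of the 250 bases before the first base of the gene are shown for these 3 genes, since they are the ones with a nominal difference, on the sense strand of each gene in GRCm38.p6. They lie at chr9:63757995-63758244 on the minus strand for Smad3, chr13:56702760-56703009 on the plus strand for Smad5 (the first of 3 starts in the table) and chr4:155222536-155222785 on the minus strand for Ski. The capitals in the Ski sequence mark the single match to a searched motif.
Smad3: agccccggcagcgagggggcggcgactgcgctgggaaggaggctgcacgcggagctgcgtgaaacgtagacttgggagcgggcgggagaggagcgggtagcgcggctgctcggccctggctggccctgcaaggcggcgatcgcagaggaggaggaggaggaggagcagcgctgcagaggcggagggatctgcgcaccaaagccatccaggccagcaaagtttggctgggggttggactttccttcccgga
Smad5: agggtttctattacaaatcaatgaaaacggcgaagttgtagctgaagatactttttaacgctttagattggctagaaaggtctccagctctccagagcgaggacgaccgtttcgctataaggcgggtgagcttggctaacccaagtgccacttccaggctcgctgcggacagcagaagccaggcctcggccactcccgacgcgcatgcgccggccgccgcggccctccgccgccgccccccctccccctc
Ski: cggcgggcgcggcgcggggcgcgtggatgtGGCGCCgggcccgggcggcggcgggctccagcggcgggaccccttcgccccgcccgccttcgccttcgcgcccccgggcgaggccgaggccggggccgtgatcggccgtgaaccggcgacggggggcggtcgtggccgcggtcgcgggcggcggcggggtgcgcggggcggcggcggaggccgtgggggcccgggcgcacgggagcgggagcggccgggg
All of these windows are rich in G and C, with 69.2% for Smad3, 60.0% for Smad5 and 87.6% for Ski. Both strands were searched for CAGACA (a core of the Smad binding element), GTCTAGAC (its palindromic form), GGCGCC (a GC-rich element bound by BMP Smads) and TGACTCA (the AP-1 site). Among 27025 promoter windows of this length, 17.1% held CAGACA, 0.174% held GTCTAGAC, 9.54% held GGCGCC and 4.43% held TGACTCA. The Ski window held 1 GGCGCC, starting 220 bases before the gene, and the Smad3 and Smad5 windows held none of the 4 letter strings. A match of letters does not show that a factor binds there.

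Among the other receptor-activated Smads, no probe set was nominal. Smad1, which acts downstream of BMP receptors, read 1623, 1579 and 2063 in crush eyes on 1459843_s_at, against 1507, 1503 and 1557 in control eyes. The groups did not overlap, with means of 1755 ± 268 in crush eyes, against 1522 ± 30.0 in control eyes (SD, n = 3 each), but the spread was mostly crush eye 3, and the log2 fold change of 0.19 had a 95% confidence interval of -0.18 to 0.57. On the second Smad1 probe set, 1448208_at, the groups overlapped, with 1337, 1101 and 1365 in crush eyes against 1254, 1396 and 1192 in control eyes (log2 fold change -0.02). The remaining Smad1 probe set, 1416081_at, was not tested and lay between 29.7 and 39.0 in crush eyes and between 27.4 and 37.4 in control eyes. Smad9, a further Smad of the BMP branch, was measured near the lower limit for testing, with 65.9, 67.5 and 59.9 in crush eyes, against 63.8, 45.8 and 67.8 in control eyes. Its log2 fold change was 0.14 (95% confidence interval -0.34 to 0.62). Smad2, the partner of Smad3 downstream of TGF-beta and activin, had values of 1131, 1314 and 946 in crush eyes on 1442062_at, against 929.66, 1168 and 886 in control eyes. It was higher in each pair, by 0.28, 0.17 and 0.10 on the log2 scale, with a log2 fold change of 0.18 (95% confidence interval -0.16 to 0.53) and overlapping groups. On 1420634_a_at the Smad2 values were 622, 381 and 247 in crush eyes and 526, 542 and 298 in control eyes, and the pairs differed in direction (log2 fold change -0.18, 95% confidence interval -0.66 to 0.30).

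Smad4, the common partner of the receptor-activated Smads, was measured by 3 probe sets, all well above the lower limit for testing. On 1422485_at the values were 2964, 2682 and 2907 in crush eyes, against 2458, 2571 and 2448 in control eyes, with no overlap between the groups. The means were 2851 ± 149 in crush eyes, against 2493 ± 68.3 in control eyes (SD, n = 3 each), and the log2 fold change of 0.19 had a 95% confidence interval of -0.16 to 0.54. The probe set 1422487_at was nearly level, with 2927, 2654 and 2948 in crush eyes and 3101, 2668 and 2726 in control eyes (log2 fold change 0.01, 95% confidence interval -0.34 to 0.35). On 1422486_a_at the values were 4128, 3690.1 and 4603 in crush eyes and 3928, 4007 and 3004 in control eyes, with a log2 fold change of 0.19 that came mostly from pair 3, at 0.62. The inhibitory Smads overlapped between groups as well. Smad7, which targets activated receptors for degradation, read 1283, 1356 and 1746 in crush eyes and 1082, 1563 and 1081 in control eyes on 1443771_x_at. Its log2 fold change was 0.24 (95% confidence interval -0.28 to 0.77), with pair 2 at -0.21 against 0.25 and 0.69 in pairs 1 and 3. On 1423389_at Smad7 read 369, 321 and 393 in crush eyes and 374, 448 and 301 in control eyes (log2 fold change -0.04). Smad6, which competes with Smad4 for BMP Smads, has a single probe set that was too dim to test, at 31.7, 38.2 and 35.8 in crush eyes and 41.7, 25.4 and 32.7 in control eyes.

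Over the 17 tested probe sets, 3 had all crush values above all control values, namely Smad1 1459843_s_at, Smad4 1422485_at and Ski 1429192_at, and 7.29% of all probe sets tested did. The opposite arrangement was found for Smad3 1454960_at and Smad5 1421047_at, that is for 2 of 17, and for 5.25% of all. The other 12 overlapped. By pair, 5 probe sets were higher in all 3 pairs, 3 were lower in all 3, and 9 were mixed. How many of all probe sets tested had 1 direction in all 3 pairs was not counted, so these numbers only describe the members. The median log2 difference of the members was 0.047 in pair 1 and 0.11 in pair 3, each with 11 of 17 above 0, but -0.12 in pair 2, with 6 of 17 above 0. The medians over all probe sets tested had the same signs, with 0.018 for pair 1, 0.070 for pair 3 and -0.082 for pair 2.

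**Figure D3:**
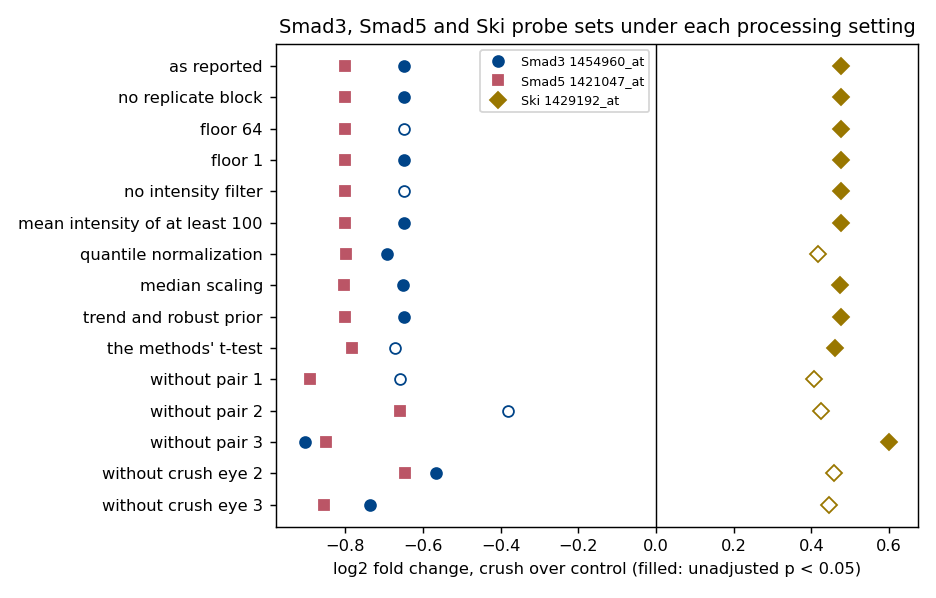
Log2 fold change, crush over control, of Smad3 1454960_at, Smad5 1421047_at and Ski 1429192_at (columns of points) under each processing setting (down the page), filled where the unadjusted p was under 0.05. Smad5 stays filled in every setting from -0.89 to -0.65, while Smad3 (-0.90 to -0.38) and Ski lose the call in several.

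The genes around the Smads were taken as 8 lists by role, with each gene represented by its brightest probe set. Of 113 genes, 92 were tested. At the nominal threshold 6 were higher (6.52%, against 2.76% of 15103 genes) and 1 was lower (1.09%, against 2.27%), and none passed after adjustment (adjusted p = 0.642 for each of the 7 in limma). The median log2 fold change of the 92 was 0.01, with 47 above 0 and 45 below, and that of all genes was -0.02. The balance depended on the arrays and settings used. Without pair 3 it was 3 higher and 3 lower. It was 3 higher and 2 lower without crush eye 3, with a mean intensity of at least 100 as the filter and with the methods' t-test. Such counts describe the lists only, since genes of a pathway are not independent of each other.

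Among 12 tested TGF-beta, activin and nodal ligands and latency proteins, 8 were above 0 and 4 below (median 0.17), and Ltbp4 was nominal. Ltbp4, which anchors latent TGF-beta in the matrix, averaged 79.5 ± 16.3 in crush eyes, against 59.9 ± 6.68 in control eyes (SD, n = 3 each; log2 fold change 0.40, SE 0.15). Of 8 tested genes in the list of BMP ligands, which also holds the protease Bmp1, 4 were above 0 and 2 were nominal, both higher. Bmp2 read 199.7, 119.8 and 155 in crush eyes, against 138, 52.4 and 90.3 in control eyes. Bmp2 groups overlapped, but each crush eye exceeded its own control eye, and the log2 fold change was 0.84 (SE 0.18). Bmp15, known chiefly as a growth factor of the oocyte, read 69.5, 83.3 and 114 in crush eyes and 59.5, 61.3 and 60.0 in control eyes on 1450210_at (0.53, SE 0.18). The other tested Bmp15 probe set, 1420006_at, was nominally lower (-0.59). Neither receptor list held a gene that was nominal on its brightest probe set. The 9 TGF-beta and activin receptors had a median of 0.02, with the smallest p values for Acvr2a (0.22, SE 0.15) and the co-receptor Eng (0.15, SE 0.16). The 7 BMP receptors and co-receptors had a median of 0.04, with the smallest p values for the co-receptors Hjv (0.27, SE 0.14) and Rgma (-0.69, SE 0.34). The Rgma value came mainly from crush eye 2, where its intensity was 26.4 against 65.5 and 71.3 in crush eyes 1 and 3.

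**Figure D4:**
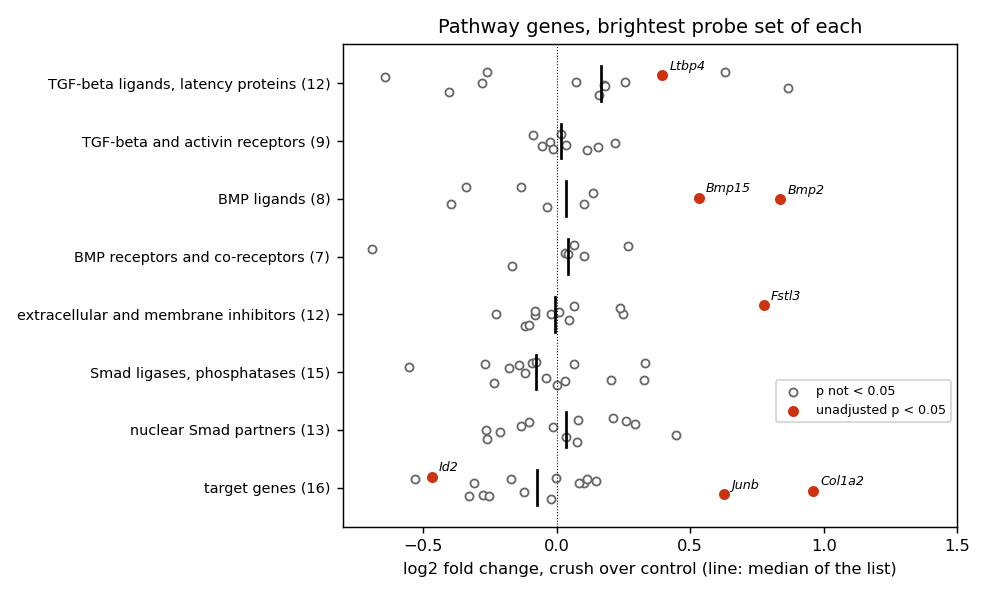
Log2 fold change, crush over control, of the 92 tested pathway genes (points) in 8 lists by role (down the page, number of tested genes in parentheses), with the median of each list as a vertical line and filled points where the unadjusted p was under 0.05. The list medians lie between -0.08 and 0.17, and 6 of the 7 filled genes are on the higher side, with Id2 on the lower.

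Of 12 tested extracellular and membrane inhibitors, 6 were above 0 and 6 below, and Fstl3, a secreted binder of activin, was nominal. Fstl3 read 87.5, 130.3 and 102 in crush eyes, against 52.9, 53.5 and 82.2 in control eyes, with no overlap (log2 fold change 0.78, SE 0.22). The 15 tested Smad anchors, ubiquitin ligases and phosphatases had a median of -0.08 and none was nominal on its brightest probe set. Nedd4l, a ligase that targets activated Smad2 and Smad3, read 1623, 1646 and 1901 in crush eyes and 1469, 1333 and 1313 in control eyes (0.33, SE 0.15), and the deubiquitinase Usp15 had a log2 fold change of 0.33 (SE 0.18). None of the 13 tested nuclear Smad partners was nominal on its brightest probe set. The acetyltransferases Ep300 (0.29, SE 0.14) and Crebbp (0.26, SE 0.16), coactivators that compete with Ski for Smad complexes, had the smallest p values there and were higher in all 3 pairs.

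The lists also hold 86 tested probe sets that are not the brightest of their gene. Of these 86, 5 were nominally higher and 5 nominally lower, where 5.16% and 2.51% of all probe sets tested were. Each of them had the same direction in all 3 pairs. This is no further support, since picking by p in a fit with eye number as a block favors it. None of them passed after adjustment (adjusted p = 0.642 for each in limma). They are named here outside the rule, after their values were seen. Acvrl1, a receptor that endothelial cells use for BMP and TGF-beta ligands, had a log2 fold change of -1.07 on 1451604_a_at. The other lower ones were Rgmb 1428430_at (-0.48), a BMP co-receptor, Tgfb2 1438303_at (-0.61), Chrdl1 1434201_at (-0.46), a secreted BMP antagonist, and the Bmp15 probe set given above. The higher ones included 3 of the nuclear partners, namely the corepressor scaffold Sin3a on 1419102_at (0.60) and the repressors Zeb1 on 1446127_at (0.50) and Zeb2 on 1454200_at (0.55). The remaining ones were the deubiquitinase Usp9x on 1428193_at (0.38) and the protease Bmp1 on 1427458_at (0.47). The brightest probe sets of these genes gave other values. They were -0.09 for Acvrl1, 0.04 for Rgmb, -0.26 for Tgfb2 and -0.12 for Chrdl1. For the higher ones they were -0.01 for Sin3a, -0.14 for Zeb1, -0.10 for Zeb2, -0.08 for Usp9x and 0.10 for Bmp1. Apart from Bmp15, none of these genes was nominal on its brightest probe set. None of the 10 nominal probe sets was from the list of target genes.

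The list of target genes of BMP or TGF-beta signaling had 16 tested members, 6 above 0 and 10 below (median -0.07). Col1a2, a fibrillar collagen chain, read 419, 520.15 and 683 in crush eyes, against 312, 207 and 314 in control eyes on 1450857_a_at. The groups did not overlap, with means of 541 ± 133 in crush eyes, against 278 ± 61.3 in control eyes (SD, n = 3 each), and the log2 fold change was 0.96 (SE 0.21). The other tested Col1a2 probe set, 1446326_at, had a log2 fold change of -0.31. Junb, an immediate early AP-1 subunit that many stimuli induce, read 161, 145 and 231 in crush eyes and 108, 126 and 108 in control eyes (0.63, SE 0.21). Id2, an inhibitor of helix-loop-helix factors that BMP Smads induce in many cells, read 435, 562 and 224 in crush eyes, against 484, 888 and 336 in control eyes. The Id2 levels differed more among eyes than between groups, but each crush eye was below its own control eye, and the log2 fold change was -0.47 (SE 0.16). A second Id2 probe set, 1453596_at, was at -0.04. Id1, chosen after its values were seen, was also lower in each pair, with 206, 159 and 172 in crush eyes and 241, 192 and 231 in control eyes, and its log2 fold change of -0.31 (95% confidence interval -0.66 to 0.04) was not nominal. Id3 (-0.17) and Id4 (-0.0022), also chosen after their values were seen, were not nominal. Col1a2 and Id2 were the 2 pathway genes that met the study's criteria with the p from limma.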

How the data were processed

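RNA amplified from ganglion cell layer, captured by laser, of 3 crush eyes and 3 control eyes was hybridized to Affymetrix Mouse 430 2.0 arrays, 1 per eye. The deposited intensity values are linear, and the authors made them in dChip with invariant-set normalization and the PM/MM model. Many low values equal 1.

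The members and gene lists were chosen with earlier results of these data known. Of 45101 probe sets, 64 controls were left out. Probe sets were named through the platform annotation, where 34945 carried 1 symbol, 932 several and 9160 none, and only single symbols were used. A floor of 16 was applied before log2 transformation. Probe sets averaging 40 or more over the 6 arrays (33169) entered limma 3.58.1 in R 4.3.3, with eye number as a block, empirical Bayes moderation and Benjamini-Hochberg adjustment over all of them. The number of arrays limits the precision. Fold changes of probe sets near the floor are understated. The script was tested on simulated data.

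Control eyes are contralateral eyes and the methods used a paired test. Residuals of same-numbered eyes correlated at 0.15, 0.13 and 0.30. Among the control eyes, each crush eye correlated best with its own number, although for crush eye 1 another control eye came close (0.13). The numbers were taken as pairs. Each pair was taken as 1 animal.

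Named were all member probe sets and, from each list, the genes with an unadjusted p under 0.05 or else the 2 with the smallest p. A gene in a list took its brightest probe set. Alternatives changed the block, floor, filter, scaling, prior, test, probe set summary or arrays used. Loci and promoter sequence come from RefSeq tables of GRCm38.p6, and 6 of 10 members had a promoter entry. Suffixes _s_at, _x_at and _a_at mark probe sets that may detect other transcripts or several of one gene.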

Additional observations from a re-analysis of the deposited data

How the results depend on the processing

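Most of the alternative settings changed 1 choice. Leaving out a crush eye also removed the replicate block, the trended robust prior changed both parts of the prior, the methods' t-test also moved to linear intensities without moderation, and the study's criteria added both of its size thresholds. No setting other than leaving out arrays changed the direction of a member probe set. The number of members with a nominal difference was 3 as reported. It was between 1 and 3 when a pair, or crush eye 2 or 3 alone, was left out. It was 1 without pair 1 and 1 without pair 2, Smad5 1421047_at each time. Without the filter on mean intensity it was again 3, with Smad2 1442062_at (higher) in place of Smad3. Without the replicate block the same 3 were called, and 5 pathway genes (all higher, without Id2) in place of 7. With a floor of 64, 11 pathway genes were nominal (8 higher and 3 lower), against 7 (6 and 1) as reported. Without pair 3 there were 3 higher and 3 lower, and the cause was not tested.

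Leaving out pairs or crush eyes changed the direction of 8 probe sets. Their log2 fold changes ran from -0.12 to 0.14 for Smad1 1448208_at, from -0.39 to 0.15 for Smad2 1420634_a_at, from -0.024 to 0.34 for Smad4 1422486_a_at and from -0.045 to 0.056 for Smad4 1422487_at. They ran from -0.19 to 0.031 for Smad5 1433641_at, from -0.18 to 0.036 for Smad5 1451873_a_at, from -0.25 to 0.18 for Smad7 1423389_at and from -0.065 to 0.30 for Smad9 1450265_at. None of these was nominal as reported.

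Over the whole array, 1713 probe sets were nominally higher and 833 lower as reported. The numbers were 1685 and 1252 with quantile normalization, 1822 and 1196 with median scaling, 1418 and 664 without the block, 946 and 725 with the methods' t-test, and 702 and 823 without pair 3. With a trended robust prior 1 probe set passed an adjusted p under 0.05, and in the other settings none did. With 3 pairs, small differences were not detectable, as the width of the members' confidence intervals shows.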
